A study of Bos taurus with 6 samples.

Results

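Signals of the transforming growth factor-beta (TGF-beta), activin and myostatin family were followed in the mRNA of intramuscular fat (IMF) through 10 genes taken by symbol. These were the ligand genes TGFB1, TGFB2, TGFB3, INHBA, INHBB and MSTN, the antagonist FST, the matrix gene LTBP2 and the receptor genes TGFBR1 and TGFBR2. All 10 were among the 25444 genes of the count table, and each had at least 10 counts in the libraries together. The steers were male Chinese Qinchuan cattle weaned at 3 months and castrated surgically at 6 months, and the bulls were intact males of the same breed weaned at the same age. Both groups were fed concentrates of the same composition, and IMF was taken from the sternomandibularis muscle at 24 months. Each group gave 1 mRNA library from pooled RNA, of 6 animals by the study's design text and of 3 by the sample labels. There was thus no spread between replicates, and every error given here covers counting only.

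TGF-beta ligands are made as precursors and stored in the extracellular matrix in a latent form, bound to latent TGF-beta binding proteins (LTBPs), until they are activated. Activins, dimers of the chains encoded by INHBA and INHBB, and myostatin, encoded by MSTN, belong to the same ligand family and are bound and blocked by follistatin, the product of FST. Both branches signal through pairs of serine/threonine kinase receptors that phosphorylate SMAD2 and SMAD3. TGF-beta is known to restrain the differentiation of preadipocytes and to drive matrix production, and myostatin is known to limit muscle growth.

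The counts summed to 12677375 in steers and 9868415 in bulls, and were divided by size factors from the median of ratios, 1.04 and 0.959. Each pair of counts was compared with a two-sided exact binomial test, with Benjamini-Hochberg adjustment over 17752 genes with a count. Calls required an adjusted p below 0.05 together with a fold change over 2. This test compares 2 libraries and not the conditions, and intervals are 95% Clopper-Pearson intervals. Over all genes tested, 4.66% were called upregulated and 8.5% downregulated in steers, or 13.2% either way. With total counts as the scaling, 21.9% of the calls were upregulated in place of 35.4%, and the median over all genes shifted by -0.24 on the log2 scale. Adipocyte transcripts were abundant in both libraries (ADIPOQ was counted 4513 times in steers and 6651 times in bulls), and so were skeletal muscle transcripts (ACTA1 13852 and 19910 times).

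Of the 10 genes, 2 were called upregulated in steers (FST and INHBB), 2 were called downregulated (TGFB1 and MSTN) and 6 were not called. Over all genes tested, 4.66% were called upregulated and 8.5% downregulated, and 10 genes are few to set beside these shares. The median log2 fold change of the 10 was 0.28, compared with 0.01 over all genes tested. By the adjusted p alone all 10 passed, 6 of them higher and 4 lower in steers, where 39.3% of all genes tested passed. That share covers 17752 genes, of which only 14540 had at least 10 counts together, as all 10 here did. More counts let smaller differences pass, such as TGFBR2 at 0.16 on the log2 scale. With total counts as the scaling 9 of the 10 passed, 4 higher and 5 lower. TGFB3 then no longer passed and TGFBR2 passed as lower. With a coefficient of variation of 0.1 between pools assumed in edgeR's exact test, 6 passed. The 4 calls allow for counting error only. With an assumed biological coefficient of variation of 0.2 between pools TGFB1 was no longer called, and with 0.4 none of the 4 was called by the exact test of edgeR.

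**Figure D1:**
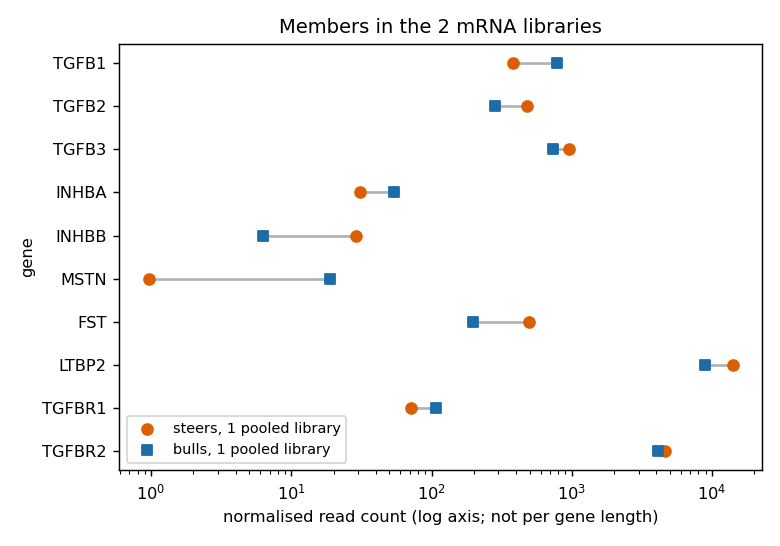
Normalised read counts of the 10 genes on a log axis, with circles for the steers library and squares for the bulls library (1 pooled library each, so no error bars). FST and INHBB lie to the right in steers and TGFB1 and MSTN to the left, and the pair of TGFBR2 points, at 4591 and 4115, nearly coincide.

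TGFB1, which encodes the TGF-beta ligand most linked to immune regulation and fibrosis, had 398 counts in steers and 756 in bulls. After scaling these were 382 and 789, so that bulls were 2.07-fold higher. The log2 fold change was -1.05 (interval -1.23 to -0.87; adjusted p = 5.45e-32, exact binomial test), and the interval reached across the 2-fold threshold. With total counts as the scaling it was -1.29, with an interval (-1.47 to -1.11) wholly beyond the threshold. TGFB1 lay at percentile 10.9 of the log2 fold changes of the 14540 genes with at least 10 counts together.

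The other TGF-beta ligand genes had values on the opposite side of 0. TGFB2, whose product needs an accessory receptor for efficient binding, had 498 counts in steers against 272 in bulls. The log2 ratio was 0.75 (interval 0.53 to 0.97), below the threshold, and it was not called. TGFB3, which had the most counts of these ligand genes in steers, had 1002 counts in steers against 700 in bulls, which gave 0.40 on the log2 scale (interval 0.25 to 0.54) and no call.

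Shares of counts within a library do not depend on the scaling between libraries. TGFB1 took 21.0% of the summed TGFB1, TGFB2 and TGFB3 counts in steers (398 of 1898, interval 19.2% to 22.9%) and 43.8% in bulls (756 of 1728, interval 41.4% to 46.1%). The odds of a TGFB1 read were 0.341 times as high in steers as in bulls (interval 0.294 to 0.396; p = 2.87e-49, Fisher's exact test). TGFB2 took 26.2% in steers and 15.7% in bulls, and TGFB3 52.8% and 40.5%. The ligand counts of steers were thus weighted away from TGFB1 and towards TGFB2 and TGFB3. Between TGFB2 and TGFB3 the difference was smaller: TGFB2 had 0.497 counts per TGFB3 count in steers and 0.389 in bulls, an odds ratio of 1.28 (interval 1.07 to 1.53; adjusted p = 0.00742 over 10 ratios, Fisher's exact test). Genes differ in length, so these shares of counts are not shares of molecules.

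**Figure D2:**
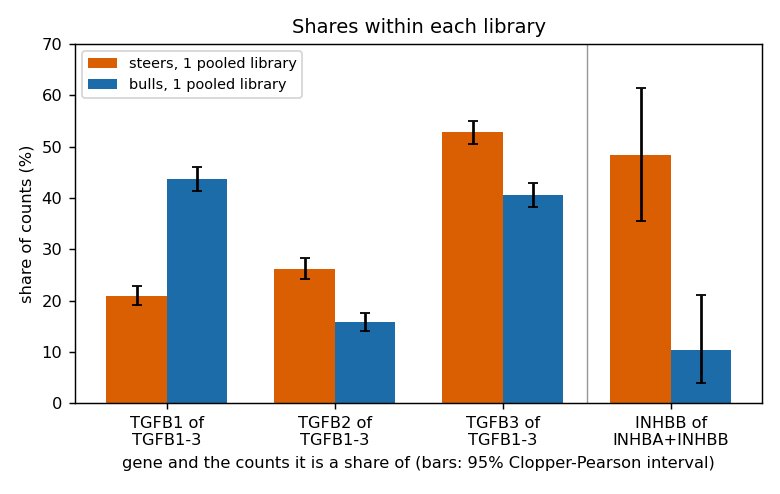
Shares of counts within each library in percent, with bars from 0 for steers and bulls and lines for 95% Clopper-Pearson intervals. TGFB1 falls from 43.8% of the TGF-beta ligand counts in bulls to 21.0% in steers, and INHBB makes up 48.4% of the activin chain counts in steers and 10.3% in bulls.

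Of the activin chains, INHBB was called upregulated. INHBB, which encodes the chain of activin B and is known to be expressed in adipocytes, had 30 counts in steers and 6 in bulls. The scaled counts, 28.8 and 6.26, differed 4.59-fold, with an interval of 1.88 to 13.5 (adjusted p = 0.000642, exact binomial test). INHBA, which encodes the chain of activin A, had 32 counts in steers against 52 in bulls, or -0.82 on the log2 scale (interval -1.51 to -0.16). It was not called, although it was with total counts as the scaling, at -1.06.

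INHBB therefore made up 48.4% of the activin chain counts in steers (30 of 62, interval 35.5% to 61.4%) and 10.3% in bulls (6 of 58, interval 3.89% to 21.2%). The odds ratio was 7.98, with an interval of 2.86 to 26.1 (p = 6.88e-06, Fisher's exact test). Both chains were scarce. With all counts divided by 5, as if fewer molecules lay behind the reads, the odds ratio was 9.02 with p = 0.0686 in Fisher's exact test.

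MSTN had 1 count in steers and 18 in bulls. The ratio of scaled counts was 0.0510 with an interval of 0.00123 to 0.323 (adjusted p = 0.000109, exact binomial test), so its size was poorly determined. Myostatin is made mainly by skeletal muscle, and muscle transcripts were in both libraries. The 12 skeletal muscle markers examined summed to 36888 counts in steers and 51785 in bulls, a ratio of scaled sums of 0.654. They did not move one way: MYH7, the myosin of slow fibres, and DES were called downregulated at -2.23 and -1.26, and MYH1, a myosin of fast fibres, was called upregulated at 1.15. Per 1000 muscle marker counts, MSTN had 0.0271 counts in steers and 0.348 in bulls, an odds ratio of 0.0780 (interval 0.00187 to 0.494). In a bulk library, fewer cells of a type and less RNA per cell cannot be told apart, here and for the markers that follow.

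FST was called upregulated. Follistatin is secreted, and without regard to gene length FST was much more frequently counted than the activin and myostatin genes whose products it blocks. It had 515 counts in steers and 189 in bulls, or 494 and 197 after scaling. The log2 fold change was 1.32 (interval 1.08 to 1.57; adjusted p = 7.51e-29, exact binomial test), a 2.50-fold difference. The whole interval lay above the 2-fold threshold, and FST was at percentile 95.6 of all genes with at least 10 counts. With total counts as the scaling the log2 fold change was 1.08, and its interval (0.84 to 1.33) reached across the threshold.

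FST had 8.31 counts per count of INHBA and INHBB together in steers and 3.26 in bulls, an odds ratio of 2.55 (interval 1.68 to 3.85; adjusted p = 9.49e-06 over 10 ratios, Fisher's exact test). Against INHBA alone the values were 16.1 and 3.63, with an odds ratio of 4.42 (interval 2.70 to 7.33). Against INHBB they were 17.2 and 31.5, and that difference was within counting error (odds ratio 0.545, interval 0.183 to 1.36). FST thus rose relative to INHBA and to the sum of both chains, while the few counts of INHBB could not show a difference of FST relative to INHBB in either direction. The other antagonist genes examined had no call, with FSTL3, a relative of follistatin, at 0.22 (interval 0.03 to 0.41) and 533 and 420 counts. Scaling by total counts shifts every gene by -0.24, which is more than the FSTL3 value, so no direction can be given for FSTL3.

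LTBP2, a member of the LTBP family that associates with elastic fibres and is not known to bind latent TGF-beta, had the most counts of the 10 genes, 14795 in steers against 8611 in bulls. The log2 ratio of 0.66 (interval 0.62 to 0.70) was below the threshold, and LTBP2 was not called. LTBP1 and LTBP3, which hold latent TGF-beta, had log2 fold changes of 0.80 (interval 0.74 to 0.86) and 0.77 (interval 0.73 to 0.81), and neither was called. LTBP2 had 1.20 counts per LTBP3 count in steers and 1.29 in bulls, and 2.36 and 2.60 per LTBP1 count. The LTBP genes thus differed from each other by little, with odds ratios of 0.925 (interval 0.889 to 0.963) against LTBP3 and 0.905 (interval 0.860 to 0.951) against LTBP1. TGFB1 had much fewer counts per LTBP2 count in steers, 0.0269 compared with 0.0878 in bulls, an odds ratio of 0.306 (interval 0.270 to 0.347).

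Neither TGF-beta receptor gene was called. TGFBR2, which encodes the receptor that binds the ligand first, had 4790 counts in steers against 3944 in bulls. The difference was 0.16 on the log2 scale (interval 0.10 to 0.22), and it turned to -0.081 with total counts as the scaling, so no direction can be given. TGFBR1, which encodes the kinase that TGFBR2 recruits and activates, was counted 75 and 104 times and had a log2 ratio of -0.59 (interval -1.04 to -0.15). Per TGFBR2 count, TGFBR1 had 0.0157 counts in steers and 0.0264 in bulls, an odds ratio of 0.594 (interval 0.434 to 0.809; adjusted p = 0.000778 over 10 ratios, Fisher's exact test).

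**Figure D3:**
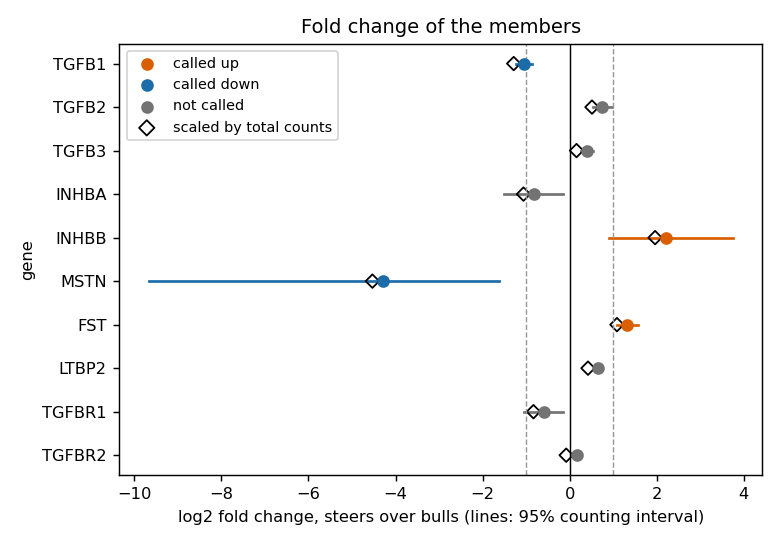
Log2 fold change of the 10 genes, steers over bulls, with filled circles for the median-of-ratios scaling, lines for 95% counting intervals, open diamonds for scaling by total counts and dashed lines at the 2-fold threshold. Total counts move every gene to the left by the same 0.24, which takes TGFBR2 across 0 and INHBA past the threshold; the interval of MSTN runs from -9.67 to -1.63.

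Among 50 further genes of the pathway found in the table, 47 had a count in either library, of which 3 were called upregulated and 2 downregulated in steers. By the adjusted p alone, 17 were higher and 8 lower in steers. These shares stand beside 4.66% and 8.5% of all genes for the calls, and 20.4% and 18.9% for the adjusted p alone, genes with few counts included. For the 45 genes with at least 10 counts the median log2 fold change was 0.22, and for all such genes 0.01.

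Both downregulated genes were from the list for the holding and release of latent TGF-beta. Of the 9 genes in that list, 5 were above 0 and 4 below with the median-of-ratios scaling. LRRC33, now named NRROS, which holds latent TGF-beta1 on macrophages and microglia, was counted 130 times in steers and 578 times in bulls, and was at -2.27 (interval -2.56 to -2.00). THBS1, whose product thrombospondin-1 can activate latent TGF-beta, had 30164 and 61472 counts and was at -1.15 (interval -1.17 to -1.13). LRRC32, which holds latent TGF-beta on regulatory T cells and platelets, had 101 and 111 counts and was at -0.26 (interval -0.66 to 0.14), without a call. In this list of 9 genes the largest value above 0 was that of LTBP1, and ITGB6, with 7 and 16 counts, had -1.31 without a call, except with total counts as the scaling, where ITGB6 was called downregulated.

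The upregulated genes were a receptor and a pair of target genes. ACVRL1, a type I receptor of endothelial cells that serves BMP9 and BMP10 and also TGF-beta, had 2231 counts in steers against 960 in bulls and was at 1.09 (interval 0.98 to 1.21). CDKN2B, a cell cycle inhibitor induced by TGF-beta, had 123 and 27 counts and was at 2.07 (interval 1.46 to 2.72). POSTN, which encodes the matrix protein periostin, had 765 and 346 counts and was at 1.02 (interval 0.84 to 1.21). ACVRL1 and POSTN lost their calls with total counts as the scaling, and CDKN2B and LRRC33 kept theirs with an assumed coefficient of variation of 0.2, at which THBS1, ACVRL1 and POSTN were not called.

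The other target genes of TGF-beta had no call. CTGF, a classical target that encodes connective tissue growth factor, was at -0.15 (interval -0.20 to -0.11). ACTA2, the smooth muscle actin of myofibroblasts, had the lowest value, -0.66 (interval -0.73 to -0.58). Of the 12 targets, 9 were above 0 and 3 below. Among all 14540 genes with at least 10 counts together, 7403 were above 0 and 7137 below.

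No gene of the SMAD relay was called with the median-of-ratios scaling. SMAD2 and SMAD3, the signal carriers, were at -0.02 (interval -0.24 to 0.20) and -0.02 (interval -0.24 to 0.21). The extremes of the 10 relay genes were SKIL, a repressor of SMAD signaling, at 0.60 (84 and 51 counts), and SMURF1, a ubiquitin ligase, at -0.95 (86 and 153 counts). SMURF1 was called downregulated with total counts as the scaling, with or without the 10 most abundant genes in the totals. SMAD7, the inhibitory SMAD that the pathway itself induces, was at 0.46 (interval 0.06 to 0.86). Its adjusted p was 0.0507 (exact binomial test), so it did not pass by the adjusted p alone either.

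Of the other receptors, ACVR1B, the type I receptor of activin, was lowest at -0.28 (interval -0.72 to 0.15). BAMBI, a decoy receptor, had 56 and 85 counts and was at -0.72, and WFIKKN2, which binds myostatin, was at 0.35 (interval -0.19 to 0.89). The further ligands were scarce. LEFTY2, a ligand that blocks NODAL signaling, had 12 and 3 counts and the highest value of that list, 1.88 (interval -0.01 to 4.34), without a call. INHBC, INHBE and GDF15 had 0 counts in both libraries, which allows up to 3 counts in each.

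**Figure D4:**
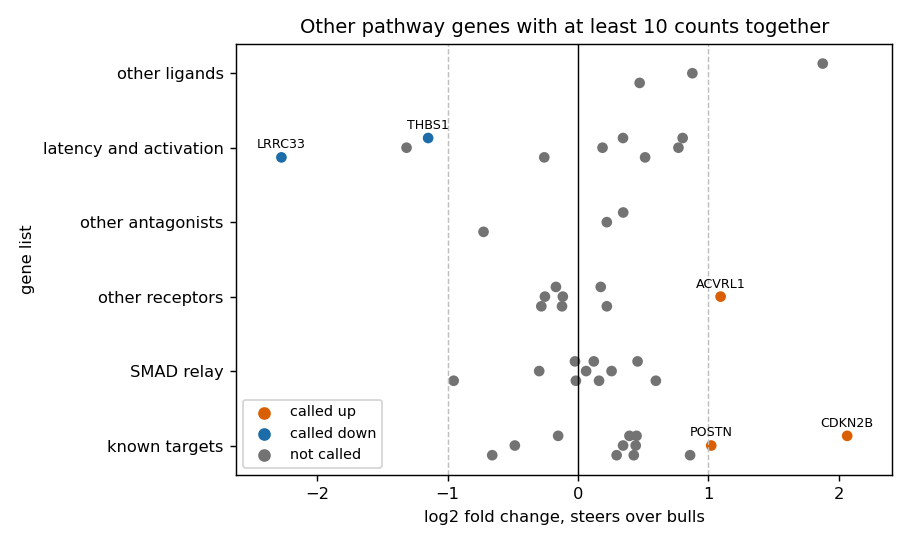
Log2 fold change, steers over bulls, of the 45 further pathway genes with at least 10 counts together, in rows by role, with called genes in color and named and dashed lines at the 2-fold threshold. LRRC33 at -2.27 and CDKN2B at 2.07 lie farthest out, and the SMAD relay genes stay between -0.95 and 0.60.

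Markers of other cell types moved with some of the called genes. All 9 myeloid markers in the table were below 0 and 7 were called downregulated, between -2.34 (CD14) and -0.64 (CD163), and their sum was 20570 counts in steers and 42935 in bulls. All 8 T lymphocyte markers were called downregulated, and they summed to 115 and 781 counts. CD3G was at 0 in steers, which allows up to 3 counts. TGFB1 and LRRC33 fell together with both lists. Per 1000 myeloid marker counts TGFB1 had 19.3 counts in steers and 17.6 in bulls, an odds ratio of 1.10 whose interval (0.970 to 1.24) spans 1. That sum leans on the markers that fell least. CSF1R, at -0.92, and CD163 had the most counts of the list in steers, 7057 and 5611 (12309 and 8052 in bulls). The median of the 9 markers was -1.62, whereas TGFB1 was at -1.05. Per 1000 T lymphocyte marker counts TGFB1 had 3461 and 968, an odds ratio of 3.57 (interval 2.83 to 4.54), so TGFB1 fell less than the T lymphocyte sum. The part of these cells in the fall of TGFB1 and LRRC33 was not tested.

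Of 8 fibroblast markers, 7 were above 0 and 2 were called upregulated, and their sum was 1194618 counts in steers and 568536 in bulls, a ratio of scaled sums of 1.93. COL1A1, COL1A2 and COL3A1, the genes of fibrillar collagens I and III, made up 88.0% of this sum in steers and 80.7% in bulls, whereas DCN was at 0.04 and PDGFRA at -0.48. FST per fibroblast marker count was higher in steers by an odds ratio of 1.30 (interval 1.10 to 1.54). The list was split after seeing the data. Against the 3 collagen genes, whose scaled sums stood in a ratio of 2.11, the odds ratio of FST was 1.19 (interval 1.004 to 1.41). Against the other 5 markers, whose scaled sums stood in a ratio of 1.20, the odds ratio of FST was 2.09 (interval 1.77 to 2.49). The 7 adipocyte markers in the table summed to 37211 and 35408 counts, with 1 called up and 1 called down, and against their sum INHBB had an odds ratio of 4.76 (interval 1.95 to 14.0). None of 8 endothelial markers was called, and their scaled sums stood in a ratio of 0.964, beside the call of ACVRL1. The part of fibroblasts in the rise of FST was not tested.

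**Figure D5:**
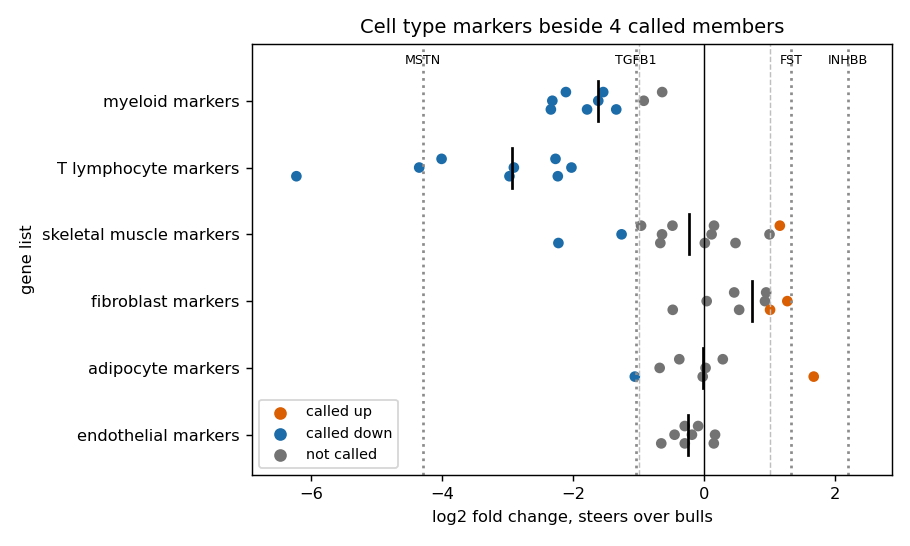
Log2 fold change, steers over bulls, of single marker genes (dots) of 6 cell types with the median of each list (black bar), dotted lines at the values of MSTN, TGFB1, FST and INHBB and dashed lines at the 2-fold threshold. Myeloid and T lymphocyte markers all lie below 0, between -2.34 and -0.64 for the former; CD3G, with 0 counts in steers, is drawn with 0.5 counts added.

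In a RefSeq table of another bovine assembly the spans of 4 of the 10 genes overlap a further gene. TGFB1 overlaps HNRNPUL1 and CCDC97, which had log2 fold changes of 0.15 and 0.11, and TGFB3 overlaps IFT43 at 0.57. TGFBR1 overlaps LOC785629 at 0.08, and INHBA overlaps a microRNA gene. The use of strand in counting is not stated, so reads of overlapping genes may not have been told apart.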

How the data were processed

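The mRNA data came from 1 pooled IMF library of steers and 1 of bulls, sequenced on an Ion Proton. The authors removed adaptors and low-quality reads and used MapSplice to align what remained to the bovine genome, and they deposited unnormalized counts of reads per gene. The submitters' processing notes also name GRCh37.p13, a human build, with no role. The counting program is not given in the sources used here. The 4 miRNA libraries were not used.

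Scaling by the median of ratios (numpy 2.4.6) was followed by two-sided exact binomial and Fisher's exact tests (scipy 1.17.1), and p-values were adjusted after Benjamini and Hochberg over all genes that had a count. A prior of 0.5 counts was added only where a library was at 0. The binomial test was tried on simulated data with counting error only, which the test assumes. That simulation held no spread between pools, so it does not cover this limit. Thresholds follow the study's methods; EBSeq was not used. Assumed spreads used edgeR 4.0.16 under R 4.3.3.

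The genes and lists were chosen with earlier results of these data known. Named were all 10 genes and each pathway gene called. The largest rise and largest fall of each pathway list among genes with at least 10 counts were named too. ITGB6, LTBP3, LRRC32, FSTL3, CTGF, SMAD2, SMAD3 and SMAD7 were added after their values were seen. So were the ratios to marker sums and most of the 10 ratios. Of these 10, only FST per count of INHBA and INHBB together was planned. LTBP4, ITGAM and PNPLA2 were not matched, and NRROS was matched by its older symbol. Where counts of different genes are set side by side, transcript lengths were not used, so these counts do not compare levels of molecules. Reads can be copies of 1 molecule, so intervals are limited to counting error. Single values of 1 or more list genes are left unreported.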

Additional observations from a re-analysis of the deposited data

How the results depend on the processing

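Directions of the 10 genes held under every scaling, filter and prior tried except for TGFBR2, which was at -0.081 with total counts. Of 110 recomputed log2 fold changes of single genes, 103 kept direction and call, 5 lost the call (TGFB1 at coefficients of variation of 0.2 and 0.4, FST, INHBB and MSTN at 0.4) and 1 gained it (INHBA with total counts). With a prior of 5 counts MSTN moved from -4.29 to -2.06 and kept its call. With an assumed coefficient of 0.2 between pools, 1 of the 10 genes was called down, 1 further pathway gene up and 1 down, and 368 of all genes up and 762 down, in place of 827 and 1509. With 0.4, 0 of the 10 genes and 0 further pathway genes were called in either direction, and 52 of all genes up and 93 down. Without the fold threshold 6 of the 10 genes were called up and 4 down, 17 further pathway genes up and 8 down, and 3619 of all genes up and 3354 down. With total counts 1 further pathway gene was called up and 4 down, and without the 10 most abundant genes in those totals 1 was called up. With counts divided by 5, the odds ratio of INHBB was 9.02 and lost significance (p = 0.0686, Fisher's exact test). A prior of 0.5 for every gene, chosen after seeing the data, changed no call of the 10. No paired analysis was possible because each group had 1 mRNA library. Depth limits MSTN, INHBB and INHBA most, which had 19, 36 and 84 counts in both libraries together.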
